A study of Mus musculus with 6 samples.

Results

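The 37 genes described here encode the Fanconi anaemia proteins and their partners in homologous recombination. They were chosen by symbol from a written list, and all 37 were found among the 14484 genes of a count table of mouse skin. The 3 ATR mD/mD libraries came from mice with the genotype ATR fl/fl, Braf CA/+, Cre +, in which part of the kinase domain of Atr is deleted. The 3 ATR WT libraries came from mice with the genotype ATR +/+, Braf CA/+, Cre +. All mice thus carried a Braf CA allele and Cre on a C57BL/6-129J background, so every comparison is between Atr genotypes within Braf CA/+ skin. The tissue is labelled as skin, and the design text of the series calls the samples nevi. The labels name neither the promoter that drives Cre nor the age of the mice. Which cells carried the deletion, and what share of the skin they made up, is therefore not known. A comparison of genotypes here is one of whole skin. They do not say whether each library is 1 mouse, so p-values measure the spread between these libraries, which may be technical.

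The Fanconi pathway repairs DNA interstrand crosslinks. A core complex of FANC proteins attaches ubiquitin to the FANCD2-FANCI pair, USP1 with WDR48 removes it, and structure-specific nucleases such as MUS81-EME1, ERCC1-ERCC4 (XPF) and FAN1 cut the DNA around the lesion. The break that follows is resected and repaired by homologous recombination, in which BRCA1, BARD1, PALB2 and BRCA2 act as mediators, further paralogous proteins (RAD51B, RAD51C, RAD51D, XRCC2 and XRCC3) and RAD54 motors assist strand exchange, and RecQ helicases process the intermediates. ATR is the kinase that signals stalled replication forks, and FANCD2, FANCI and SMARCAL1 are among its known substrates. Many of these genes are known to be transcribed mainly in dividing cells, and in skin the hair matrix of a growing follicle is among the fastest dividing tissues.

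The libraries held between 34723600 and 38565590 counts in genes in ATR mD/mD skin and between 39297160 and 46847751 in ATR WT skin. The 37 genes together took 15661, 17730 and 18585 of these counts in ATR mD/mD libraries 1, 2 and 3, against 16021, 20782 and 22575 in ATR WT libraries 1, 2 and 3. Hair genes set the libraries apart whatever the genotype. The hair level of a library, here the mean log2 CPM (the count scaled to library size) of 32 hair keratins and other follicle genes, was -0.40, 1.90 and 7.07 in the ATR mD/mD libraries and 1.68, 6.87 and 7.17 in the ATR WT libraries. So ATR mD/mD 3, ATR WT 2 and ATR WT 3 were high in hair genes, and 1 high library fell in ATR mD/mD skin against 2 in ATR WT skin. The other lists of markers varied as well. Summed melanocyte markers (7 of 7 measured) were 132.6, 144 and 839.9 CPM in ATR mD/mD skin and 197.9, 850.8 and 582.5 CPM in ATR WT skin. Summed skeletal muscle markers (5 of 5) were 13687, 14658 and 4920 CPM in ATR mD/mD skin and 22532, 8135 and 4992 CPM in ATR WT skin. Fibroblast markers (6 of 6) summed to between 7066 and 16223 CPM in ATR mD/mD skin and between 13689 and 17559 CPM in ATR WT skin, and immune markers (5 of 7) to between 375 and 760.5 CPM in ATR mD/mD skin and between 312.1 and 820 CPM in ATR WT skin. Markers of interfollicular keratinocytes summed to between 12692 and 16947 CPM in ATR mD/mD skin and between 10446 and 17998 CPM in ATR WT skin (5 of 6 measured), so defining skin markers were present. No marker list gives the number of cells, and in bulk tissue fewer cells of a type cannot be told apart from less RNA per cell.

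Atr (chromosome 9, 95857597 to 95951781, plus strand, mm10) was measured at 20.8, 22.2 and 24.8 CPM in ATR mD/mD skin and at 17.6, 24.5 and 24.2 CPM in ATR WT skin. The groups overlapped, with a log2 fold change of 0.03 (SE 0.172, 95% interval -0.38 to 0.44). A count over the whole gene includes exons outside the deleted part of the kinase domain and so does not check the genotype labels.

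None of the 37 repair genes passed the test of Atr genotype. With edgeR's quasi-likelihood test, 0 of 37 had an adjusted p under 0.05, where 0.0483% of all genes did, and 0 of 37 had an unadjusted p under 0.05, where 1.66% of all genes did. DESeq2 and limma-voom called 0 of 37 as well. The log2 fold changes of ATR mD/mD over ATR WT ran between -0.53 and 0.45 with a median of 0.08, while the median of all genes was 0.007. In edgeR's test the adjusted p by genotype was 0.9999 for each of the 37 genes. A positive fold change was found for 28 of the 37 (75.7%), where 52% of all genes had one. Without ATR mD/mD 3 the count was 19 of 37 and the median 0.01, and without ATR WT 1 the count was 22 and the median 0.02. The 95% interval lay inside -1 to 1 for 25 of the 37 genes and inside -0.5 to 0.5 for 13, so for those 25 a change of 2-fold or more lay outside the interval. In the authors' deposited table the lowest p-value among the 37 was 0.151 and every adjusted p-value was 1.

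**Figure D1:**
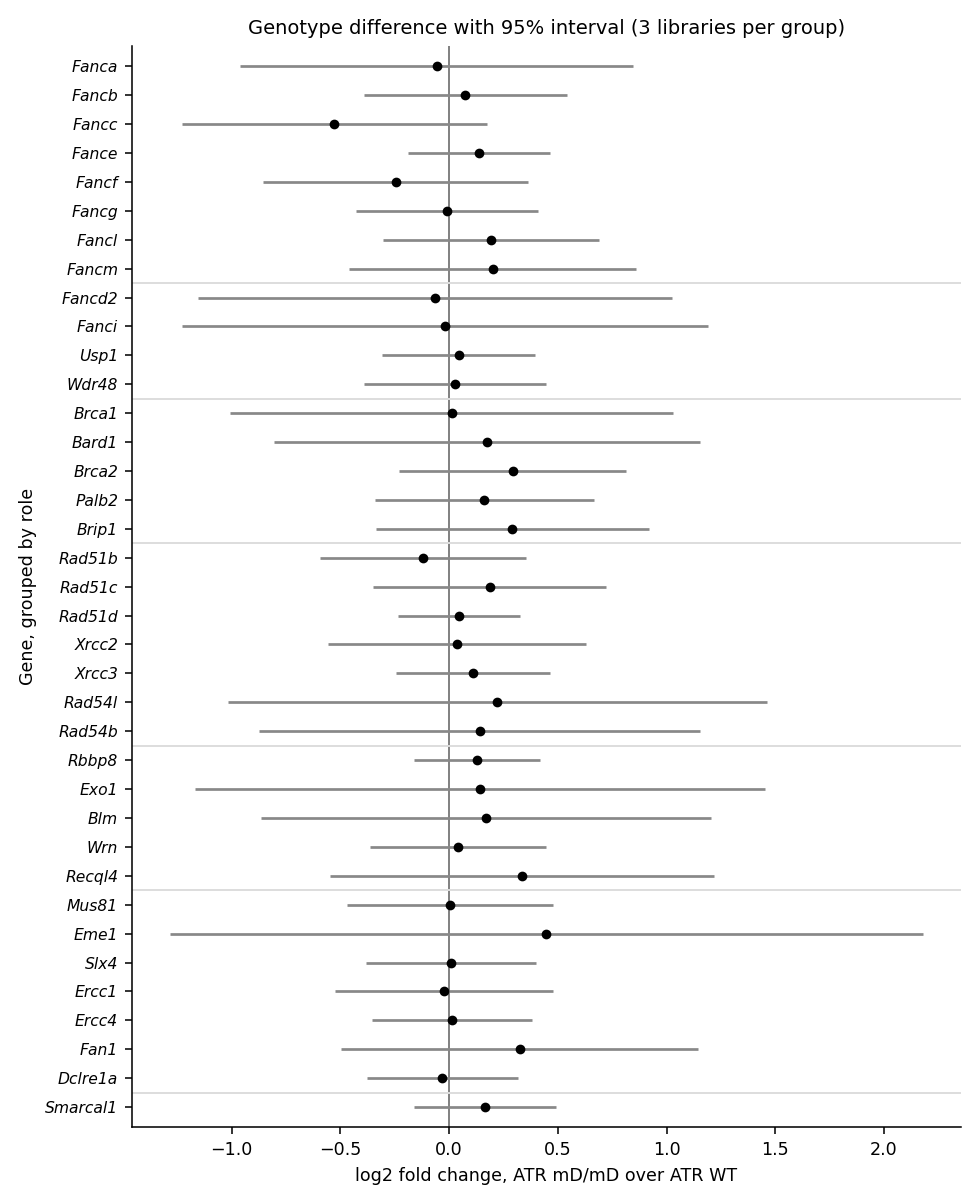
The log2 fold change of ATR mD/mD over ATR WT for each of the 37 genes, by role, with its 95% interval from edgeR's quasi-likelihood fit. Every interval crosses 0. The widest, reaching 1.73 to either side, is that of Eme1, and the narrowest, reaching 0.280, that of Rad51d.

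Among the 8 core complex genes, 4 had a positive and 4 a negative fold change, with a median of 0.03. Fancc (chromosome 13, 63285043 to 63497278, minus strand), a core complex subunit, had the smallest p of all 37 genes. It was measured at 13.4, 12.3 and 23.3 CPM in ATR mD/mD skin and at 23.7, 28.3 and 18.6 CPM in ATR WT skin. ATR mD/mD libraries 1 and 2 were low and the groups overlapped through ATR mD/mD 3 and ATR WT 3. The log2 fold change was -0.53 (SE 0.292, 95% interval -1.23 to 0.17), and without ATR mD/mD 3 it was -0.87 (edgeR adjusted p = 0.708). On the other strand 16.4% of its exon length is shared with the antisense gene Gm16133 and 2.2% with 2010111I01Rik, and the kit does not mark the strand. Fance, which joins the core complex to FANCD2, was at 26.2, 25.2 and 30.5 CPM in ATR mD/mD skin and at 26.2, 25.3 and 22.9 CPM in ATR WT skin. ATR mD/mD 3 was the high library and ATR WT 3 the low one, and the log2 fold change was 0.14 (SE 0.136), or 0.05 without ATR mD/mD 3 and 0.07 without ATR WT 3.

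For the substrates of that complex the differences by genotype lay within the spread of the libraries. The 4 genes of the FANCD2-FANCI pair and its deubiquitinase had log2 fold changes between -0.07 and 0.04, the narrowest range of estimates of any role with more than 1 gene. The estimates for the pair itself were imprecise, with 95% intervals of -1.16 to 1.02 for Fancd2 and -1.23 to 1.19 for Fanci. Usp1, the deubiquitinase, was at 48.3, 51.1 and 60.1 CPM in ATR mD/mD skin and at 44.8, 51.8 and 58.0 CPM in ATR WT skin. ATR mD/mD 3 and ATR WT 3 were the highest of their groups, and the log2 fold change was 0.04 (SE 0.146, 95% interval -0.31 to 0.40). Its sign turned without ATR mD/mD 3 (-0.05) and without ATR WT 1 (-0.03).

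All 5 mediator genes (Brca1, Bard1, Brca2, Palb2 and Brip1) had positive fold changes, with a median of 0.17, and none passed the test. Brca2 (chromosome 5, 150522630 to 150570329, plus strand), which encodes a mediator of strand exchange, was the only one of the 37 genes whose groups did not overlap, where 2.26% of all genes were separated in this direction. It was at 7.81, 8.13 and 11.8 CPM in ATR mD/mD skin and at 7.47, 7.66 and 7.49 CPM in ATR WT skin. The gap between the groups was small, and ATR mD/mD 3 alone stood well above the other libraries. The log2 fold change was 0.29 (SE 0.218, 95% interval -0.23 to 0.82), and without ATR mD/mD 3 it was 0.08. None of the 37 genes was separated in the other direction, where 2.58% of all genes were. Brip1, a helicase bound to BRCA1, was at 4.12, 4.06 and 6.44 CPM in ATR mD/mD skin and at 3.75, 3.93 and 4.26 CPM in ATR WT skin. Here too ATR mD/mD 3 was the high library, with a log2 fold change of 0.29 (SE 0.262), or 0.04 without that library.

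Of the 7 genes of that paralog group and the RAD54 motors, 6 had a positive fold change, with a median of 0.11. Rad51c, a paralog that also acts in crosslink repair, had the smallest p of them. It was at 4.72, 4.55 and 5.47 CPM in ATR mD/mD skin and at 4.11, 5.06 and 3.77 CPM in ATR WT skin. The groups overlapped, and the log2 fold change was 0.19 (SE 0.223). Rad51d, another paralog, had the narrowest interval of all 37 genes. It was at 27.7, 28.8 and 27.4 CPM in ATR mD/mD skin and at 27.8, 25.3 and 28.3 CPM in ATR WT skin, with all libraries close together, and the log2 fold change was 0.05 (95% interval -0.23 to 0.33).

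The 5 genes of resection and the RecQ helicases also had positive fold changes, with a median of 0.14. Rbbp8, which encodes the resection factor CtIP, was at 40.4, 37.6 and 38.1 CPM in ATR mD/mD skin and at 38.8, 33.2 and 34.2 CPM in ATR WT skin. Only ATR WT 1 reached the ATR mD/mD values, and the log2 fold change was 0.13 (SE 0.121). Among the 7 structure-specific nucleases the median was 0.01. Dclre1a, a nuclease of crosslink repair, was the steadiest of all 37 genes. It was at 11.95, 11.9 and 10.9 CPM in ATR mD/mD skin and at 11.9, 11.9 and 11.7 CPM in ATR WT skin, a variance below that of counting alone (ratio 0.508, against a median of 11.4 over the 37 genes). Fan1, another crosslink nuclease, was at 3.89, 4.57 and 2.75 CPM in ATR mD/mD skin and at 1.93, 3.24 and 3.77 CPM in ATR WT skin. ATR WT 1 was its low library, and the log2 fold change was 0.32 (SE 0.342), or 0.11 without that library. Smarcal1, which remodels stalled forks, was at 27.9, 27.3 and 33.2 CPM in ATR mD/mD skin and at 27.3, 27.3 and 24.2 CPM in ATR WT skin. Its groups overlapped narrowly, with ATR mD/mD 3 the high library and ATR WT 3 the low one, and the log2 fold change was 0.16 (SE 0.137), or 0.07 without ATR mD/mD 3 and 0.10 without ATR WT 3.

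**Figure D2:**
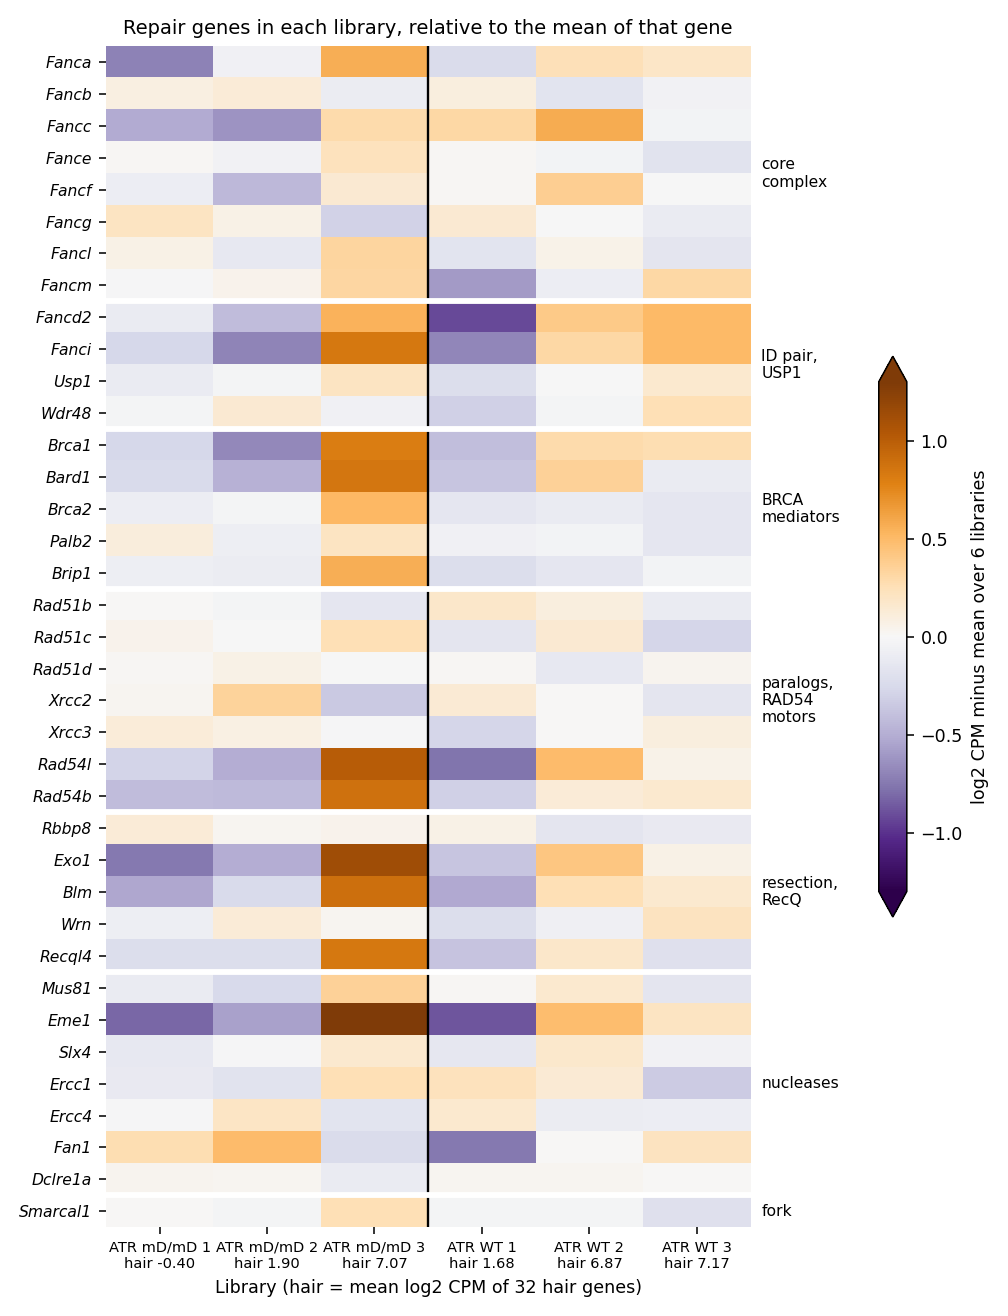
Each of the 37 genes in each of the 6 libraries, ATR mD/mD on the left and ATR WT on the right, as its log2 difference from the gene's own mean. ATR mD/mD 3 holds the highest value for 22 of the 37 genes and ATR WT 1 the lowest for 14.

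The genes differed widely in level. Divided by exon length, the highest mean level over the 6 libraries was that of Usp1 at 14.0 CPM per kb, followed by Fance at 8.16 and Rad51d at 7.41 CPM per kb. The range of Usp1 over the libraries lay above that of Fance, while Fance and Rad51d overlapped. The lowest were Fanca at 0.232, Fancd2 at 0.343 and Rad54l at 0.393 CPM per kb, all of which overlapped in their ranges. Fanca, a core complex subunit, was at 0.137, 0.214 and 0.33 CPM per kb in ATR mD/mD skin and at 0.189, 0.265 and 0.255 CPM per kb in ATR WT skin. Its groups overlapped, and its log2 fold change was -0.06 (SE 0.377). Fancd2, the ubiquitinated partner of FANCI, was at 0.299, 0.24 and 0.469 CPM per kb in ATR mD/mD skin and at 0.17, 0.426 and 0.456 CPM per kb in ATR WT skin. ATR WT 1 was its low library, and its log2 fold change was -0.07 (SE 0.454). The FANCD2-FANCI pair thus stood far below its own deubiquitinase per length. The median gene of the 37 was at 1.38 CPM per kb. Without regard to length the median level was 6.75 CPM, against 27.98 CPM over all genes.

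**Figure D3:**
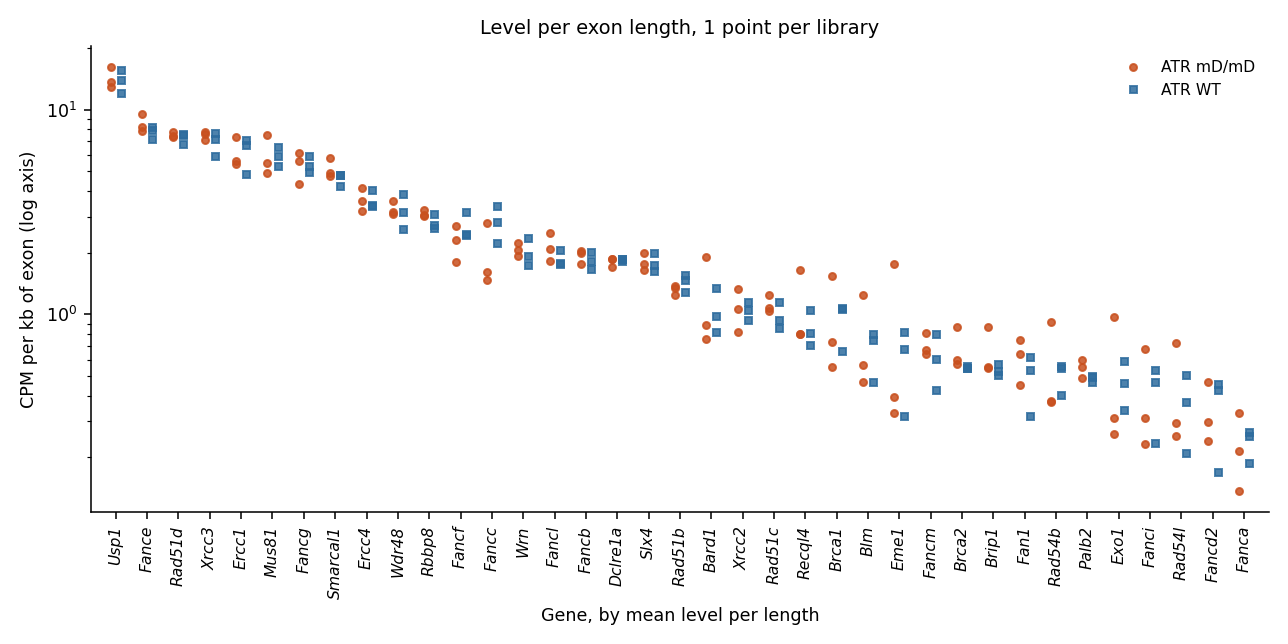
Level per length (CPM per kb of exon, log axis) of each of the 37 genes in the 6 libraries, ordered by the mean. Usp1 leads at 14.0 CPM per kb and Fanca is lowest at 0.232.

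Libraries of 1 genotype differed among themselves, and for some genes those high in hair genes stood above those low in hair genes. ATR mD/mD 3 was the highest of its group for 25 of the 37 genes (67.6%), where 43.9% of all genes had that order, and ATR WT 1 the lowest of its group for 21 (56.8%), where 45.3% did. Both held for 17 genes, where 25.4% of all genes had both, and the reverse of both for 5 genes, where 22.1% did. In 12 of the 37 genes (32.4%) all of ATR mD/mD 3, ATR WT 2 and ATR WT 3 stood above the other libraries, an order held by 19.6% of all genes. These were Fanca, Fancd2, Fanci, Usp1, Brca1, Bard1, Rad54l, Rad54b, Exo1, Blm, Recql4 and Eme1. The opposite order was held by 4 genes (Fancb, Fancg, Xrcc2 and Ercc4), where 17.1% of all genes had it. ATR mD/mD 3 held the highest value for 22 of the 37 genes (59.5%), where 27.5% of all genes peaked in that library. ATR WT 1 held the lowest value for 14 (37.8%), where 22.4% of all genes did. The ratio of the highest to the lowest library passed 2 in 13 of the 37 genes (35.1%), against 28.5% of all genes.

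A fit of hair level and genotype together gave each gene a slope, the log2 change per log2 unit of hair level at equal genotype. Since the libraries formed a high and a low cluster, this slope is mostly the step between them. It was positive and past an adjusted p of 0.05 for 3 of the 37 genes, where 5.61% of all genes were called in that direction, and negative for 0, where 4.21% were. With either direction counted, 8.11% of the 37 genes and 9.82% of all genes were called, so the share was near the background. The 3 genes were Eme1, Blm and Exo1. At an unadjusted p under 0.05 there were 13 slopes, where 27.1% of all genes had one: 12 positive slopes, where 14.4% of all genes had that direction, and 1 negative slope, where 12.7% did.

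Eme1 (chromosome 11, 94644996 to 94653964, minus strand) encodes the partner that MUS81 needs to cut recombination and fork structures. It had 32, 43 and 169 counts in ATR mD/mD skin and 32, 98 and 91 counts in ATR WT skin, which is 0.915, 1.09 and 4.84 CPM in ATR mD/mD skin and 0.882, 2.25 and 1.86 CPM in ATR WT skin. The 3 high libraries were ATR mD/mD 3, ATR WT 2 and ATR WT 3, with no overlap with the others. Its slope was 0.298 (SE 0.051, edgeR adjusted p = 0.0206), the steepest of the 37 genes. By genotype alone its log2 fold change was 0.45 (SE 0.722, 95% interval -1.29 to 2.18). A part of its exons (8.0% of the length) is shared with Lrrc59 and 2.7% with Mrpl27, both on the other strand.

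Blm (chromosome 7, 80454733 to 80535119, minus strand) encodes the RecQ helicase that dissolves double Holliday junctions. It was at 4.09, 4.98 and 10.9 CPM in ATR mD/mD skin and at 4.11, 7.06 and 6.59 CPM in ATR WT skin. The same libraries were high, and its slope was 0.172 (SE 0.0331, edgeR adjusted p = 0.0272). Exo1 (chromosome 1, 175880581 to 175913489, plus strand) encodes a resection exonuclease. It was at 2.20, 2.62 and 8.13 CPM in ATR mD/mD skin and at 2.87, 4.97 and 3.89 CPM in ATR WT skin. ATR mD/mD 3 stood far above the rest, and the slope was 0.206 (SE 0.0482, edgeR adjusted p = 0.0456).

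These 3 calls were fragile. None of the 3 remained without ATR mD/mD 1, without ATR mD/mD 3, without ATR WT 2 or with genotype left out of the fit. Eme1 and Blm remained without ATR mD/mD 2, and Eme1 alone without ATR WT 1 or without ATR WT 3. Exo1 passed in none of these 6 fits with a library left out. Over these 6 omissions the slope of Eme1 kept its sign, and without ATR mD/mD 3 it was 0.211 (edgeR adjusted p = 0.174). The slope of Blm was then 0.134 and that of Exo1 0.113. With both terms in the fit, genotype had an unadjusted p under 0.05 for Blm and Eme1, where 4.72% of all genes did. Their log2 fold changes at equal hair level were 0.49 (SE 0.202) for Blm and 0.87 (SE 0.308) for Eme1, and 0 of 37 genes had an adjusted p under 0.05, where 0.069% of all genes did.

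**Figure D4:**
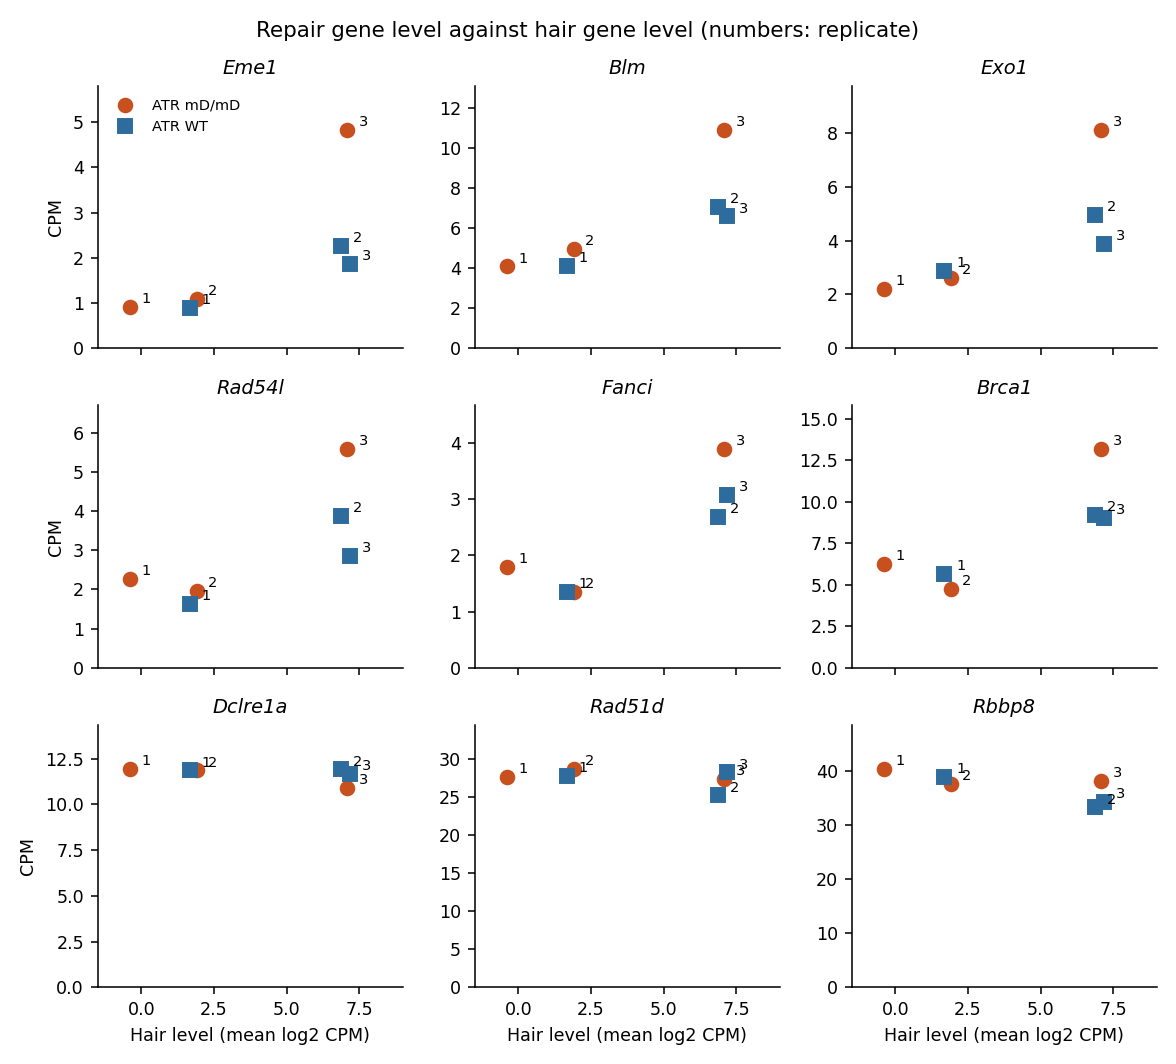
CPM against hair level (mean log2 CPM of 32 hair genes), 1 point per library, for the 6 genes with the smallest p of slope and, in the bottom panels, 3 genes whose values varied little. In the 6 upper panels the 3 libraries of high hair level, at 6.87 to 7.17, lie above the other 3 and ATR mD/mD 3 is the highest point.

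The next genes in order missed the threshold. Rad54l, a motor of strand invasion, was at 2.26, 1.96 and 5.58 CPM in ATR mD/mD skin and at 1.63, 3.89 and 2.87 CPM in ATR WT skin. The same 3 libraries were high, with a slope of 0.193 (SE 0.0484, edgeR adjusted p = 0.0556). Lrrc41 on the other strand shares 15.4% of its exon length. Fanci, the partner of FANCD2, was at 1.80, 1.35 and 3.89 CPM in ATR mD/mD skin and at 1.35, 2.69 and 3.07 CPM in ATR WT skin. It too was high in the 3 libraries rich in hair genes (slope 0.183, edgeR adjusted p = 0.0695), and Polg shares 15.95% of its exon length. Brca1, the ubiquitin ligase subunit that promotes resection, was at 6.23, 4.72 and 13.2 CPM in ATR mD/mD skin and at 5.65, 9.199 and 9.05 CPM in ATR WT skin (slope 0.151, edgeR adjusted p = 0.0703). Fancg, a core complex subunit, went the other way, at 23.3, 21.2 and 16.4 CPM in ATR mD/mD skin and at 22.5, 20.1 and 18.8 CPM in ATR WT skin. Its slope was -0.057 (edgeR adjusted p = 0.148), the lowest of the 37 genes.

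Proliferation genes, as a sum, were higher in the 3 libraries rich in hair genes, though not every gene had that order. The 30 genes of that list summed to 755, 734.7 and 1673 CPM in ATR mD/mD skin and to 842.1, 1122 and 1007 CPM in ATR WT skin. In 16 of the 30 all of ATR mD/mD 3, ATR WT 2 and ATR WT 3 stood above the other libraries, where 19.6% of all genes had that order. The opposite order was held by 0 of the 30, where 17.1% of all genes had it. ATR WT 1 was the lowest of its group for 17 of the 30, where 45.3% of all genes had that order. All 30 had their highest value in ATR mD/mD 3, where 27.5% of all genes did. All 30 had a positive slope with hair level, where 52.2% of all genes had one. Of these slopes 10 passed edgeR's test, where 5.61% of all genes passed in that direction. Mki67, a marker of dividing cells, was at 56.5, 43.3 and 235 CPM in ATR mD/mD skin and at 57.2, 130 and 118 CPM in ATR WT skin. The lowest adjusted p of slope in that list belonged to Ccnb1 (slope 0.276, edgeR adjusted p = 0.00819), E2f2 (0.195, 0.011) and Bub1 (0.334, 0.0159), and none of these 3 passed without ATR mD/mD 3. By genotype 0 of the 30 passed edgeR's test, with 0 at an unadjusted p under 0.05. The smallest p belonged to Gins2 (log2 fold change 0.34, SE 0.238), Cdt1 (0.29, SE 0.223) and Mcm4 (0.10, SE 0.129). The melanocyte sum given above was higher and the muscle sum lower in the 3 libraries rich in hair genes. Sums of interfollicular keratinocyte and endothelial markers (3 of 3 measured) were lower there too. For keratinocytes they were 13847, 16947 and 12692 CPM in ATR mD/mD skin and 17998, 10446 and 12210 CPM in ATR WT skin. The endothelial sums were 185.8, 223.1 and 140.8 CPM in ATR mD/mD skin and 211.6, 163.8 and 170.3 CPM in ATR WT skin. Fibroblast, immune and adipocyte sums overlapped between these libraries and the others. The part of dividing cells, melanocytes, muscle, keratinocytes, endothelium and hair follicles in the values of the 37 genes was not tested.

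Partners of 1 complex did not always keep pace. The ratio of Eme1 to Mus81, per exon length, was 0.0605, 0.0805 and 0.234 in ATR mD/mD skin and 0.0537, 0.124 and 0.128 in ATR WT skin, a 4.36-fold range. Mus81 itself, at 17.5 to 26.7 CPM in ATR mD/mD skin and 18.8 to 23.5 CPM in ATR WT skin, spanned far less than Eme1. Ratios of the other 6 pairs spanned 1.35-fold to 1.75-fold. Bard1 over Brca1, the heterodimer of the ubiquitin ligase, was 1.22, 1.37 and 1.24 in ATR mD/mD skin and 1.24, 1.25 and 0.925 in ATR WT skin. Both genes ranked the 6 libraries in the same order, from ATR mD/mD 2 at the bottom to ATR mD/mD 3 at the top. Fanci over Fancd2 was 1.04, 0.971 and 1.44 in ATR mD/mD skin and 1.37, 1.09 and 1.16 in ATR WT skin. The groups overlapped in each of these ratios.

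**Figure D5:**
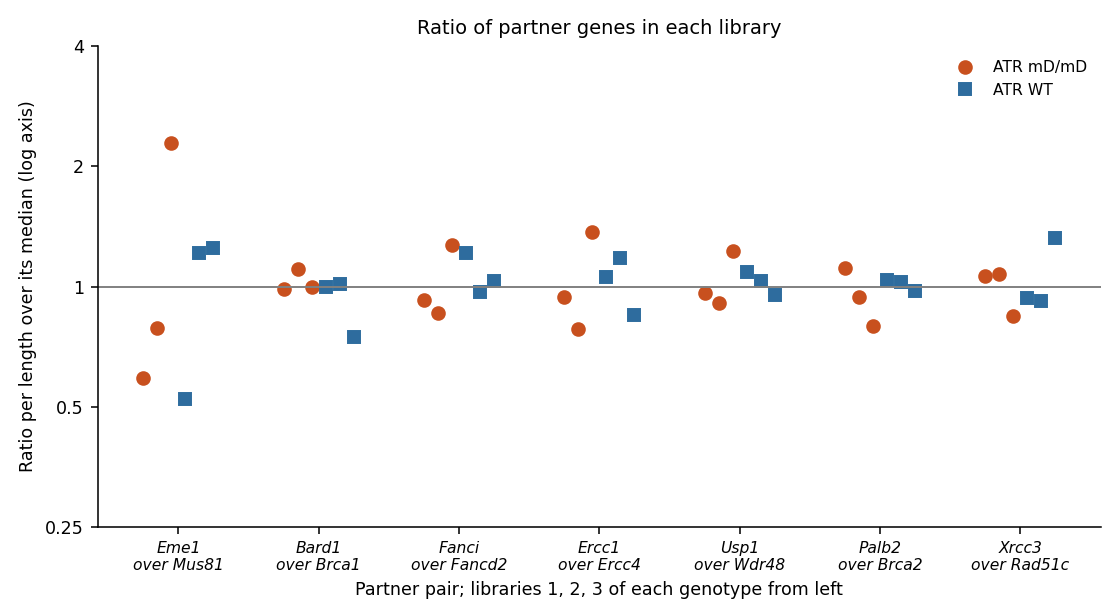
Ratio of levels per exon length for 7 pairs of partner genes in each library, divided by the pair's median over the 6 libraries (log axis), ATR mD/mD beside ATR WT. Eme1 over Mus81 spans 4.36-fold, and no other pair spans more than 1.75-fold.

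The promoters of these genes were searched for 2 kinds of letters known from genes of the cell cycle. E2F-type letters were TTCCCGC or TTGGCGC and CHR-type letters were TTTGAA, on both strands, in the RefSeq window of 250 bases before to 50 after the start (GRCm38.p6, the same build as mm10). An entry was found for 28 of the 37 genes. None was found for Exo1, Fancd2, Rad51d, Rad54b, Rbbp8, Recql4, Usp1, Wrn and Xrcc2, so the shares and slopes below leave them out. E2F-type letters were present in 11 of the 28 (39.3%), in 7.79% of all 27025 genes with an entry and in 13.5% of the 10969 such genes in the count table. A gene was counted when any of its windows held the letters. The 11 genes were Bard1, Brca1, Brca2, Dclre1a, Fancb, Fancf, Fancg, Fanci, Fancm, Rad51c and Wdr48. In a window of the last 150 bases the shares were 21.4%, 4.51% and 7.69%. CHR-type letters were present in 5 of the 28 (17.9%), in 20.2% of all genes with an entry and in 14.6% of those in the count table. A positive slope with hair level was found for 8 of the 11 genes with E2F-type letters (median 0.038) and for 15 of the 17 without (median 0.035). Of all genes 52.2% had a positive slope. A match is a description of letters, and no binding was measured.

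The 250 bases before the start are given for 5 genes, 5′ to 3′ on the gene's own strand, with E2F-type letters in capitals. Eme1 (chr11:94653744-94653993, minus strand) and Blm (chr7:80534999-80535248, minus strand) are shown because their slopes passed the test, although neither window holds the letters. Exo1 passed as well but had no entry. Bard1 (chr1:71102973-71103222, minus strand), Rad51c (chr11:87404955-87405204, minus strand) and Fancg (chr4:43010302-43010551, minus strand) hold E2F-type letters at 208, 68 and 51 bases before the start, in Rad51c on the opposite strand, with slopes of 0.137, 0.026 and -0.057. Bard1, Rad51c and Fancg were picked from the genes with the letters without a set rule. The Rad51c window holds a second match that crosses the start and is not shown, and a second RefSeq window of Rad51c holds none.
Eme1: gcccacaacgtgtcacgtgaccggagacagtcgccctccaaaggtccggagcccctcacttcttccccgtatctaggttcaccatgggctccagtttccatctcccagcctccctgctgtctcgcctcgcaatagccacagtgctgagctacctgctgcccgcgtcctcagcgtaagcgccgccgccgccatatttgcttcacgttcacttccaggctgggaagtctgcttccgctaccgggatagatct
Blm: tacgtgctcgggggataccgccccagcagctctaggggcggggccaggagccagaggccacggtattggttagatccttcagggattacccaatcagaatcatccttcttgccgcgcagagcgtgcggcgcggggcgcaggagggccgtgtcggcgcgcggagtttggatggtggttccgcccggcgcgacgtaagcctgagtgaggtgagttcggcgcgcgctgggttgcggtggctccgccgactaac
Bard1: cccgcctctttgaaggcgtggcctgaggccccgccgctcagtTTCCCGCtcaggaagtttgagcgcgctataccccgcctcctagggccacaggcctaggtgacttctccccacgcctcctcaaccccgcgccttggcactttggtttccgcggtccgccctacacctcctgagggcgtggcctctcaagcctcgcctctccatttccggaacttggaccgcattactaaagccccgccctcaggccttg
Rad51c: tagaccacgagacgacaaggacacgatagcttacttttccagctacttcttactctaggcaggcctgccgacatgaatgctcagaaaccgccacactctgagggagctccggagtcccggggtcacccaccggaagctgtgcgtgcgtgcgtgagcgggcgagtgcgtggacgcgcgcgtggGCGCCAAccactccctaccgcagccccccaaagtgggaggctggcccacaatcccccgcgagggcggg
Fancg: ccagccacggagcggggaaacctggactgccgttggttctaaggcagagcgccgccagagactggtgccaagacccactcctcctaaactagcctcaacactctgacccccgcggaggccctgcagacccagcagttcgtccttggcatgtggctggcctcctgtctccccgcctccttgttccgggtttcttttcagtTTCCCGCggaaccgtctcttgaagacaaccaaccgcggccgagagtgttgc

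Other genes of the same repair pathways were not called by genotype either. Of 63 listed, 55 were measured, and 0 of 55 passed edgeR's test of genotype, with 0 at an unadjusted p under 0.05 and 0 with DESeq2. A positive fold change was found for 43 of the 55, where 52% of all genes had one, and the median was 0.10. ATR mD/mD 3 held the highest value for 30 of the 55, where 27.5% of all genes peaked in that library. The count of positive fold changes in this list was not taken with a library left out. Slx1b, the nuclease that works with SLX4, had the smallest p. It was at 14.8, 16.2 and 18.6 CPM in ATR mD/mD skin and at 23.6, 21.9 and 18.8 CPM in ATR WT skin. All ATR mD/mD libraries lay below all ATR WT libraries, though ATR mD/mD 3 and ATR WT 3 nearly met, and the log2 fold change was -0.38 (SE 0.159, edgeR adjusted p = 0.9999). Faap100, a core complex subunit, had a log2 fold change of 0.22 (SE 0.136), and Rev3l, a translesion polymerase subunit, one of 0.20 (SE 0.146). Against hair level, 2 of the 55 were called with positive slopes, where 5.61% of all genes were, so this count is no result about the list. Parpbp, which restrains homologous recombination, was at 0.886, 0.863 and 3.35 CPM in ATR mD/mD skin and at 0.607, 1.89 and 1.60 CPM in ATR WT skin (slope 0.279, edgeR adjusted p = 0.0239). Uhrf1, a ubiquitin ligase that also senses crosslinks, had a slope of 0.133 (edgeR adjusted p = 0.0476). Without ATR mD/mD 3 the slopes of Parpbp and Uhrf1 were 0.243 and 0.0666. Parpbp no longer passed without ATR mD/mD 3, ATR WT 1 or ATR WT 2, nor did Uhrf1 without any one of the ATR mD/mD libraries or ATR WT 2. Neither passed with genotype left out of the fit (edgeR adjusted p = 0.0639 for Parpbp and 0.082 for Uhrf1), and Uhrf1 did not pass with RLE normalization (edgeR adjusted p = 0.0524).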

How the data were processed

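RNA of mouse skin was measured in 6 libraries, 3 ATR mD/mD and 3 ATR WT, grouped by their titles. Messenger RNA was selected with oligo dT and libraries used the TruSeq RNA v2 chemistry, per the labels' protocols. FastQC, edgeR and TopHat2 2.0.12 are named with the build mm10, per the submitters' processing notes. The labels do not say how reads were counted, on which annotation or with which minimum. The authors' table gives raw counts for each gene and library, per the file headers. It also lists, for the authors' comparison, log2 values (fold change and average CPM), p-values and adjusted p-values.

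Of the 14486 lines, 2 name no gene (4.93% to 5.72% of the counts of a library) and were left out. Counts were scaled with TMM and tested over all 14484 genes with edgeR 4.0.16 in R 4.3.3 (quasi-likelihood, Benjamini-Hochberg), without covariates for genotype and with hair level added for the slope. filterByExpr removed no gene. SE is the absolute log2 change divided by the square root of F. Hair level uses log2 CPM with a prior count of 2. Alternatives were size factors of DESeq2 (RLE), other filters, limma-voom (limma 3.58.1), DESeq2 1.42.0, a replicate block, hair level as a covariate, other hair levels and each library left out. Libraries of a group differed beyond sampling noise (chi-square per degree of freedom at least 55.3). Positions and exon lengths come from GENCODE M21 on mm10, and 19 of the 37 genes share exon bases with another gene, so their counts are uncertain there. The largest share was that of Rad54b, with 35.8% of its exon length shared with Fsbp on the same strand. Fsbp is not in the count table.

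The 37 genes, the lists and the tests were chosen with earlier results of these data known. Given in full were the 6 genes with the smallest p by genotype, the 6 by slope, the extremes per length and, by role, 1 or 2 examples, with 3 genes per contrast of the other lists, of which 1 is not reported here. Genes named for a narrow interval, a steady level or a negative slope (Rad51d, Dclre1a, Fancg), and Mki67, were chosen after their values were seen.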

Additional observations from a re-analysis of the deposited data

How the results depend on the processing

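No alternative called any of the 37 genes by genotype, and none called any of the 55 other repair genes. DESeq2 called 39 of all genes by genotype, against 7 with edgeR's test, and leaving out 1 library gave 4 to 10. The median log2 fold change of the 37 genes was 0.01 to 0.15 with 1 library left out, with 19 to 32 genes positive, and 24 were positive with limma-voom. With hair level as a covariate this median was 0.19, against 0.08 in the main fit, and 29 genes were positive. The median of all genes was then 0.008. Against hair level, 0 of the 37 genes were called with genotype left out of the fit (1311 of all genes), 0 to 2 with 1 library left out (181 to 1186 of all genes), and 3 with limma-voom or with a hair level from inner root sheath keratins. Among the genes named by p, and Atr, signs turned with 1 library left out for the fold changes of Atr (-0.095 to 0.11) and Usp1 (-0.053 to 0.126) and the slope of Smarcal1 (-0.0168 to 0.0338), none of which was called. The E2F-type share of 39.3% was 21.4% in the shorter window. Ordered by CPM without length, 1 of the 3 highest and 1 of the 3 lowest genes remained. Same-numbered libraries deviated together in 2 of 3 pairs (correlations of 0.633, -0.509 and 0.573, with 1 of 3 best matched by its own number), and the labels tie the numbers to nothing, so they were not taken as pairs. With the replicate block 6 of all genes and 0 of the 37 were called, with a median of 0.05 and 25 positive. Causes were not tested. Depth limits the lowest genes most: Eme1 had 32 counts in its lowest library.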
